A study of Mus musculus with 2 samples.

Results

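The teneurin, latrophilin and FLRT genes were followed in total RNA of newborn mouse forebrain. The 10 members are the teneurins Tenm1 to Tenm4, the latrophilins Adgrl1 to Adgrl3 (Lphn1 to Lphn3 in older releases) and the fibronectin leucine-rich transmembrane genes Flrt1 to Flrt3. All 10 were found by Ensembl identifier among 43346 genes, of which 21474 are protein-coding. The 2 libraries form 1 group: forebrain of healthy mice of strain B6NTac;B6NCrl/Lap at age 0 days, males and females pooled, with no treatment. Replicate 1 came from 15 mice and replicate 2 from a pool of mice whose size is not stated. The labels call them biological replicates from independent isolates, but both carry 1 donor identifier, and whether they share animals is not stated. The spread between them may thus be partly technical, and no comparison of conditions can be made.

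Teneurins are large transmembrane proteins of neurons whose extracellular part holds a beta-propeller and a barrel of tyrosine-aspartate repeats. They bind each other and, across the synaptic cleft, latrophilins, which are adhesion G protein-coupled receptors with a lectin and an olfactomedin-like domain. FLRT proteins bind the olfactomedin-like domain of latrophilins and also the netrin receptors of the Unc5 family. In the developing forebrain these contacts are known for the guidance of migrating neurons, the matching of axons to their targets and the formation of synapses.

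The depth was 61441535 expected counts in replicate 1 and 65097130 in replicate 2 over genes with an Ensembl identifier. Protein-coding genes held 70.6% of these counts in replicate 1 and 78.4% in replicate 2. They held 13.5% and 22.0% of TPM, the relative number of transcripts after division by length. The TPM total covers all features, spike-ins included, so the shares of counts and of TPM have unlike denominators. The split of the remaining TPM was not examined. Levels below are in coding TPM, for which TPM was rescaled so that protein-coding genes alone make up the full TPM total. The tissue label was set beside regional markers. Each of the 16 telencephalic factors had at least 1 coding TPM in both libraries, from Gsx2 at 1.31 ± 0.13 to Bcl11b at 108.9 ± 12.5 (SD, n = 2), and 0 counts were found in both libraries for 11 of 12 Hox genes, markers of the hindbrain and spinal cord. The exception was Hoxa3, at 0.11 ± 0.16 coding TPM (SD, n = 2). A count of 0 allows up to 3 counts per library, for counting error only.

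All 10 genes were expressed, and the latrophilin Adgrl1 led. The 10 had a median level of 67.2 coding TPM, against 8.25 coding TPM over all protein-coding genes. Their median percentile among protein-coding genes was 85.2, and the percentiles ran from 49.9 for Flrt1 to 97.3 for Adgrl1. In such bulk tissue, fewer cells expressing a gene and less RNA per cell cannot be told apart.

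Among the teneurins, Tenm3, known for matching axons to targets in the visual system and hippocampus, had 105.8 coding TPM in replicate 1 and 124.7 in replicate 2. Tenm2, a high-affinity ligand of Adgrl1, had 63.9 coding TPM in replicate 1 and 87.9 in replicate 2. Tenm1, the X-linked teneurin, had 58.6 coding TPM in replicate 1 and 72.0 in replicate 2. Replicate 2 was the higher library for each of these genes, and the values of Tenm3 lay above those of Tenm2 and Tenm1 in both libraries. Tenm4, known for its part in oligodendrocyte differentiation and myelination, had 46.4 coding TPM in replicate 1 and 69.4 in replicate 2. The mean levels were 115.2 ± 13.3 for Tenm3, 75.9 ± 17.0 for Tenm2, 65.3 ± 9.42 for Tenm1 and 57.9 ± 16.3 coding TPM for Tenm4 (SD, n = 2). Tenm3 thus held 36.9 ± 2.33% of the teneurin sum, Tenm2 24.0 ± 1.12%, Tenm1 20.8 ± 0.72% and Tenm4 18.2 ± 1.93%.

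Among the latrophilins, Adgrl1, the brain receptor for the spider toxin alpha-latrotoxin, had 241.8 coding TPM in replicate 1 and 249.7 in replicate 2. Adgrl3, a postsynaptic receptor for FLRT3 and teneurins, had 118.5 coding TPM in replicate 1 and 161.3 in replicate 2. Adgrl2, which with Tenm3 shapes hippocampal wiring, had 63.7 coding TPM in replicate 1 and 74.6 in replicate 2. The ranges of the 3 genes over the libraries did not overlap, and each was lower in replicate 1. Adgrl1 averaged 245.7 ± 5.58, Adgrl3 139.9 ± 30.3 and Adgrl2 69.2 ± 7.68 coding TPM (SD, n = 2). Their shares of the latrophilin sum were 54.2 ± 3.96% for Adgrl1, 30.6 ± 3.73% for Adgrl3 and 15.2 ± 0.23% for Adgrl2.

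Among the FLRT genes, Flrt2, a repulsive ligand of Unc5d on migrating cortical neurons, had 48.0 coding TPM in replicate 1 and 64.8 in replicate 2. Flrt3, a latrophilin ligand that also acts with Robo1 in thalamic axons, had 37.7 coding TPM in replicate 1 and 42.0 in replicate 2. Flrt1, which together with Flrt3 sets the spread of migrating cortical neurons, had 7.90 coding TPM in replicate 1 and 8.49 in replicate 2. Flrt1 was lower than each of the other 9 members in both libraries. The means were 56.4 ± 11.9 for Flrt2, 39.9 ± 3.01 for Flrt3 and 8.20 ± 0.42 coding TPM for Flrt1 (SD, n = 2). Flrt2 held 53.7 ± 3.49% of the FLRT sum, Flrt3 38.4 ± 2.74% and Flrt1 7.90 ± 0.76%.

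**Figure D1:**
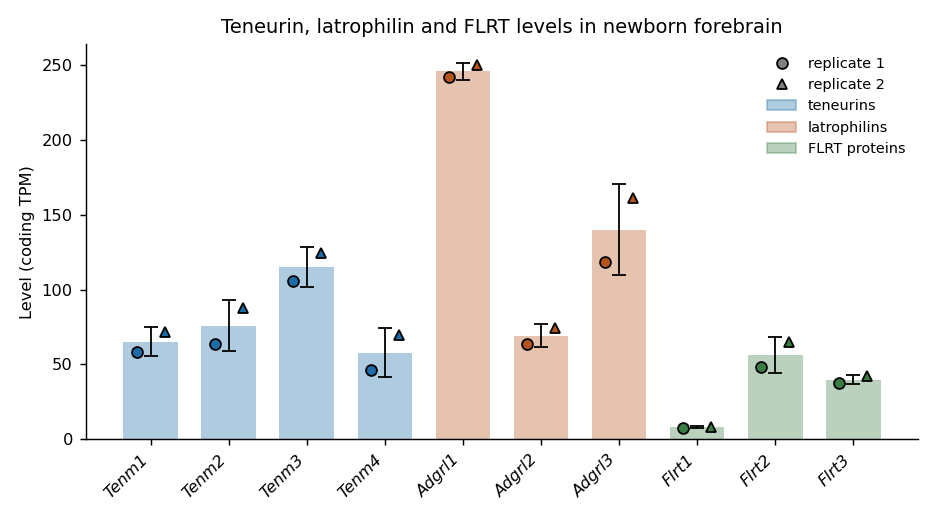
Level of each gene in coding TPM (vertical axis), grouped by family. Bars are means of the 2 libraries, error bars SDs, circles replicate 1 and triangles replicate 2; Adgrl1 stands highest at 245.7 and Flrt1 lowest at 8.20.

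The plot of levels by library shows the order of the genes. By mean it ran Adgrl1, Adgrl3, Tenm3, Tenm2, Adgrl2, Tenm1, Tenm4, Flrt2, Flrt3 and Flrt1. Of neighbours in this order, the ranges over the libraries did not overlap between Adgrl1 and Adgrl3, Tenm3 and Tenm2, Flrt2 and Flrt3, or Flrt3 and Flrt1. The ranges of the other 5 neighbouring pairs overlapped, with replicate 2 the higher library for every gene. Within each library the order of these pairs was the same, except that Tenm4 and Flrt2 changed places. Some gaps were small, with Tenm2 at 1.002 times Adgrl2 in replicate 1.

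The latrophilin genes together gave the largest family sum and the FLRT genes the smallest in both libraries. Summed levels were 424.0 coding TPM in replicate 1 and 485.6 in replicate 2 for the latrophilins. For the teneurins they were 274.7 in replicate 1 and 353.9 in replicate 2, and for the FLRT genes 93.6 in replicate 1 and 115.3 in replicate 2. The latrophilin sum was 1.54 times the teneurin sum in replicate 1 and 1.37 times in replicate 2. The teneurin sum was 2.93 times the FLRT sum in replicate 1 and 3.07 times in replicate 2, and the latrophilin sum was 4.53 times it in replicate 1 and 4.21 times in replicate 2.

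The genes differ widely in size. On mm10, Tenm2 spans 1229.3 kb at chr11:36006656-37235964, Tenm1 901.3 kb at chrX:42527866-43429126, Tenm4 739.8 kb at chr7:96171246-96911093 and Tenm3 616.3 kb at chr8:48227682-48843951. Adgrl3 covers 805.0 kb at chr5:81020138-81825133, Adgrl2 175.0 kb at chr3:148815583-148990555 and Adgrl1 only 41.9 kb at chr8:83900105-83941954. Flrt2 covers 93.0 kb at chr12:95692226-95785215, Flrt3 20.6 kb at chr2:140650914-140671469 and Flrt1 13.7 kb at chr19:7092001-7105729. The last 2 lie within Macrod2 and Macrod1, genes of ADP-ribosyl hydrolases on the opposite strand, with 0 shared exonic bases. Macrod2 had 69.8 coding TPM in replicate 1 and 47.9 in replicate 2, and Macrod1 had 9.75 in replicate 1 and 8.40 in replicate 2. The libraries are stranded, per the labels, but no source used here gives the strand setting of the counting. The antisense gene with the most counts among those analysed that share exonic bases with a member was Gm19744, with 135 and 48 expected counts over 114 bases shared with Tenm3, which had 13511 and 14854.

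The transcript tables list 84 transcripts for the 10 genes. For 9 genes the same transcript held the largest share of TPM in both libraries, and for 7 it held over 50% in both. Flrt1 has 1 transcript, Flrt3-202 held 90.5 ± 1.83% of Flrt3 and Flrt2-201 held 76.1 ± 3.21% of Flrt2, with Flrt2-202 at 23.9 ± 3.21% (SD, n = 2). Adgrl1-207 held 66.3 ± 10.8% of Adgrl1, Adgrl2-202 63.6 ± 6.16% of Adgrl2, Tenm2-202 59.9 ± 1.79% of Tenm2 and Tenm1-203 54.1 ± 1.73% of Tenm1. All of these are protein-coding. Among protein-coding transcripts alone, Tenm1-203 held 96.6% of Tenm1 TPM, and it held 90.5 ± 1.82% of Tenm1 counts (SD, n = 2). Tenm4-203 led Tenm4 with 34.97 ± 1.68%, before Tenm4-209, a transcript of 708 nt, with 29.4 ± 0.30%, and Tenm4-201 with 12.3 ± 0.66%. Also at 10% or more in either library were Tenm2-201 with 17.9 ± 5.42%, Adgrl1-201 with 10.3 ± 3.35%, Adgrl2-203 with 24.5 ± 4.88%, the retained-intron Adgrl2-201 with 11.9 ± 1.28%, and Flrt3-201 with 9.48 ± 1.83%.

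Adgrl3 was the gene with the most divided output. It has 32 transcripts, and its largest was Adgrl3-202 with 13.2% in replicate 1 but Adgrl3-220 with 16.0% in replicate 2. Adgrl3-220, the leader by mean with 13.2 ± 4.02%, held 21.3% among protein-coding transcripts alone. The next by mean share were Adgrl3-204 with 11.2 ± 1.41%, the retained-intron Adgrl3-228 with 10.3 ± 2.09% and Adgrl3-202 with 10.2 ± 4.18%. Adgrl3-223, annotated for nonsense-mediated decay, followed with 9.37 ± 1.68% (SD, n = 2). Noncoding transcripts of at least 2000 nt held 31.3 ± 0.89% of Adgrl3 TPM. Single isoforms of Adgrl3 were poorly fixed by the data, as Adgrl3-207 had 966.0 expected counts in replicate 1 and 0.17 in replicate 2. In Tenm3, the leading transcript of 7827 nt, with 39.0 ± 3.51% of TPM, has no match in GENCODE M21, the annotation used for transcript names. It was followed by Tenm3-202, of 639 nt, with 25.8 ± 5.82% and Tenm3-201 with 19.6 ± 4.74%.

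By mean share of TPM, short transcripts weighed most on the levels of the 4 teneurins and of Adgrl1. Transcripts under 2000 nt held 39.0 ± 0.31% of Tenm1 TPM but 4.58 ± 0.16% of its counts, all in Tenm1-204, a processed transcript of 1143 nt. In Tenm4 such transcripts held 37.5 ± 4.43% of TPM and 2.54 ± 0.15% of counts. In Tenm3 they held 26.6 ± 6.94% of TPM and 1.90 ± 0.63% of counts, and in Adgrl1 18.4 ± 13.9% of TPM and 1.51 ± 1.33% of counts (SD, n = 2). TPM divides counts by length, so few counts on a short transcript can carry as much TPM as many on the full-length one. In Tenm2, 20 counts in replicate 1 and 35 in replicate 2 on Tenm2-207, of 368 nt, made up 11.8% and 16.6% of its TPM. In Adgrl1 the share under 2000 nt was 28.2% of TPM in replicate 1 and 8.55% in replicate 2, with the retained-intron Adgrl1-209 at 583.8 and 182.0 counts. Adgrl1-208, another retained-intron transcript, held 10.5% of TPM in replicate 1 and 3.13% in replicate 2. Adgrl2 and all 3 FLRT genes had 0% of counts in shorter transcripts in both libraries.

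**Figure D2:**
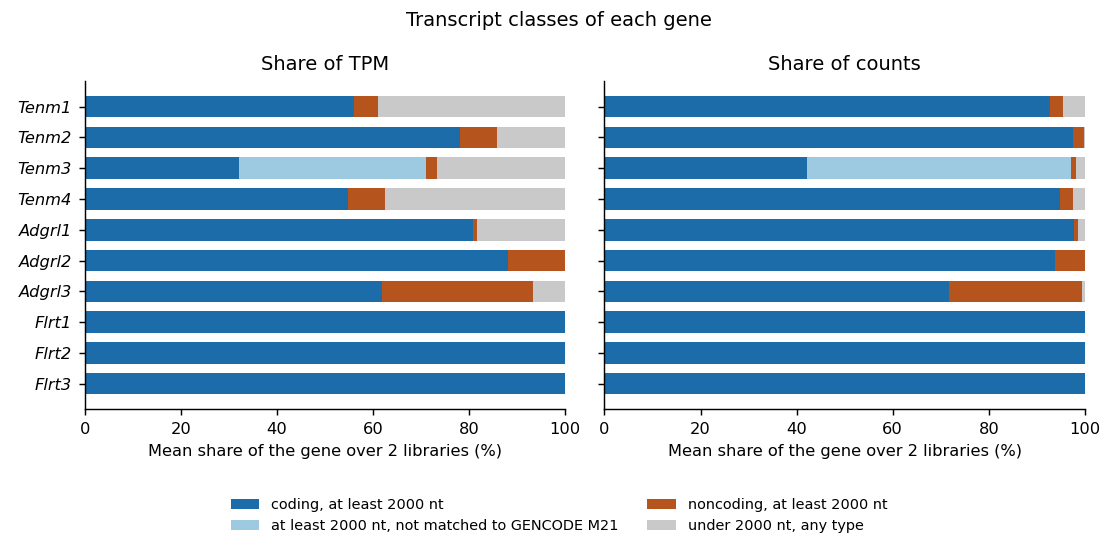
Share of each gene's TPM (left) and of its counts (right) held by transcript classes, in percent, as the mean of the 2 libraries. Transcripts under 2000 nt hold 39.0% of Tenm1 TPM but 4.58% of its counts, and none in the FLRT genes.

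The bars of transcript classes show the same gap in all 4 teneurins. When levels were summed over transcripts of at least 2000 nt, Tenm1 stood at 39.8 ± 6.0 and Tenm4 at 35.8 ± 7.64 coding TPM, both next to Flrt3 at 39.9 ± 3.05 (SD, n = 2). Tenm3 then stood at 84.1 ± 1.80, Tenm2 at 64.7 ± 11.99 and Adgrl1 at 201.0 ± 38.6 coding TPM. The order became Adgrl1, Adgrl3, Tenm3, Adgrl2, Tenm2, Flrt2, Flrt3, Tenm1, Tenm4 and Flrt1, so that 4 of 10 genes kept their rank. Adgrl1, Adgrl3, Tenm3 and Flrt1 are those 4. This sum was chosen after seeing the data.

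**Figure D3:**
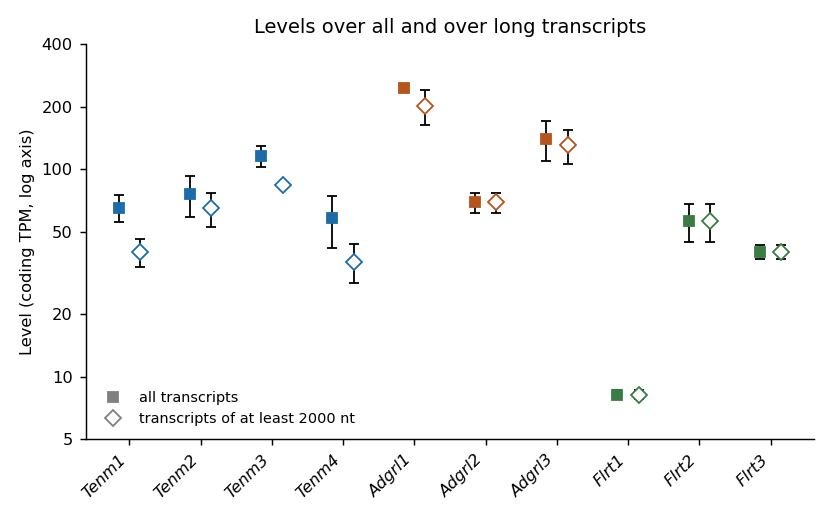
Level of each gene in coding TPM on a log axis, over all transcripts (filled squares) and over transcripts of at least 2000 nt (open diamonds), as means with SDs over 2 libraries. Tenm1 is at 65.3 over all and 39.8 over long transcripts, while Flrt1 is at 8.20 in both.

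The plot of long transcripts leaves the latrophilin sum, at 400.2 ± 71.0 coding TPM, above the teneurin sum, at 224.5 ± 27.4 (SD, n = 2). The FLRT sum stayed at 104.45 ± 15.3, whereas the teneurin sum over all transcripts was 314.3 ± 56.0 coding TPM. The teneurin sum thus exceeds the FLRT sum by less over long transcripts.

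Teneurins and latrophilins carry very short coding exons, microexons, some of which lie in or between the domains that bind partners. In Tenm1 to Tenm4 a 21-nt exon encodes an insert of the beta-propeller, which is known in Tenm2 and Tenm3 to change adhesion, and in Tenm3 and Tenm4 a 27-nt exon encodes an insert between EGF-like repeats. In Adgrl1 and Adgrl3 a 15-nt exon encodes an insert between the lectin and olfactomedin-like domains, known in Adgrl1 to weaken binding to teneurins. The sequences below, from GENCODE M21 transcripts, are shown because the inclusion values concern them. They are written 5′ to 3′ on the coding strand, with the microexon in capitals and 15 bases of each neighbouring exon in lower case.
Tenm1, 21 nt: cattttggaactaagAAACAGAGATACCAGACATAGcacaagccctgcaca
Tenm2, 21 nt: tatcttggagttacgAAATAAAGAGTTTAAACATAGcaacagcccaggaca
Tenm3, 21 nt: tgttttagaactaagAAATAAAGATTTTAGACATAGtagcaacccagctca
Tenm4, 21 nt: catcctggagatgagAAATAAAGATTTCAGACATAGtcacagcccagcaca
Tenm3, 27 nt: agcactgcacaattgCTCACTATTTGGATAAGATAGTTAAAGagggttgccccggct
Tenm4, 27 nt: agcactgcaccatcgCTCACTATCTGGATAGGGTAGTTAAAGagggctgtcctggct
Adgrl1, 15 nt: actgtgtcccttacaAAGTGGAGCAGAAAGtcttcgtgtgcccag
Adgrl3, 15 nt: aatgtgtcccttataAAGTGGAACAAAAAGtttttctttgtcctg

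The 21-nt exons lie at chrX:42648394-42648414 (minus strand) in Tenm1, chr11:36054926-36054946 (minus strand) in Tenm2, chr8:48287133-48287153 (minus strand) in Tenm3 and chr7:96854717-96854737 (plus strand) in Tenm4, on mm10. Tenm3 and Tenm4 share 20 of 21 bases there, Tenm2 and Tenm3 share 19, and Tenm1 and Tenm2 share 14. The 27-nt exons lie at chr8:48313238-48313264 in Tenm3 and chr7:96805105-96805131 in Tenm4 and share 24 bases. The 15-nt exons lie at chr8:83926262-83926276 in Adgrl1 and chr5:81509724-81509738 in Adgrl3, both on the plus strand, and share 13 bases. In the members as a whole, 19 coding internal exons were at most 60 nt long, 18 of them a multiple of 3, and 12 were skipped by another annotated transcript.

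Inclusion, the share of TPM in transcripts with the exon among those that include or skip it, was high in the teneurins. The 21-nt exon was included at 98.6% in replicate 1 and 100% in replicate 2 in Tenm1, and at 79.2% and 75.9% in Tenm4. In Tenm3 it was included at 81.4% in replicate 1 and 68.7% in replicate 2. In Tenm2 all 3 annotated transcripts across this position include it, so no inclusion could be computed. The 27-nt exon was included at 86.3% in replicate 1 and 79.5% in replicate 2 in Tenm3, and at 78.1% and 71.4% in Tenm4. Every teneurin value was thus over 50%, and replicate 1 was the higher library in Tenm3 and Tenm4. The Tenm1 values rest on 55.3% of the gene's TPM in replicate 1 and 56.7% in replicate 2. Tenm1-202, the only annotated transcript that skips the Tenm1 exon, had 129.9 expected counts in replicate 1 and 0 in replicate 2. The Tenm4 values rest on 53.2 to 57.3% of the gene's TPM, and the Tenm3 values on only 20.4 to 28.1%. For Tenm3, part of the reason lies in its transcripts. The unmatched leading transcript of Tenm3 could not be placed, and neither Tenm3-202 nor Tenm3-204 counts as including or skipping these exons. Skipping rested in part on retained-intron transcripts. Tenm3-205, of 2526 nt, held 1.70 of the 5.54 coding TPM skipping the 21-nt exon in replicate 1 and 4.00 of 9.22 in replicate 2. Tenm4-212, of 1301 nt, held 0.37 of the 5.83 coding TPM skipping the 27-nt exon in replicate 1 and 2.36 of 11.3 in replicate 2.

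By transcript TPM, the latrophilin 15-nt exon was mostly skipped in Adgrl1 and mostly included in Adgrl3. In Adgrl1 its inclusion was 18.1% in replicate 1 and 19.0% in replicate 2, a mean of 18.6 ± 0.62%, with the leading Adgrl1-207 among the transcripts that skip it. In Adgrl3 it was 85.5% in replicate 1 and 87.0% in replicate 2, a mean of 86.3 ± 1.06% (SD, n = 2). The 2 genes did not overlap, and within each the libraries lay close together. These values rest on 72.2% of Adgrl1 TPM in replicate 1 and 92.1% in replicate 2. For Adgrl3 the shares were 74.1% in replicate 1 and 60.9% in replicate 2. The Adgrl3 transcripts counted as skipping the 15-nt exon, Adgrl3-226 and Adgrl3-231, are both annotated with a retained intron, whereas Adgrl1-207 is coding. Adgrl3-201, which is coding and lacks the 15-nt exon, was counted as neither including nor skipping it. This transcript had 0 coding TPM in replicate 1 and 2.32 in replicate 2. Adgrl3 has further short exons with an annotated skip. A 39-nt exon at chr5:81663386-81663424 was included at 78.4 ± 7.17%, a 27-nt exon at chr5:81757986-81758012 at 48.6 ± 0.70% and another 39-nt exon at chr5:81774393-81774431 at 7.99 ± 0.91% (SD, n = 2). For an 18-nt exon of Adgrl1 at chr8:83937916-83937933, the only annotated skipping transcript was Adgrl1-203, of 639 nt. It had 13.2 expected counts in replicate 1 and 0 in replicate 2. Inclusion of the 18-nt exon was 99.6 ± 0.63%. These values depend on how the authors' quantification divided reads among annotated transcripts, and with posterior mean counts in place of expected counts Tenm1 stood at 97.3% in replicate 1 and 92.9% in replicate 2, which turns the order of its libraries. Exon structures were read from GENCODE M21, in which some lengths differ from the deposited ones. Tenm3-206, the only annotated transcript that skips the 27-nt exon of Tenm3 and 1 of 2 that skip its 21-nt exon, has 8663 nt in M21 and 9242 nt in the deposited tables. Tenm3-201, which includes both, has 8961 nt in M21 and 8889 nt in the deposited tables, and Tenm4-201 and Tenm4-202 differ as well. The inclusion values of Tenm3 and Tenm4 therefore assume that these exons are the same in both annotations.

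**Figure D4:**
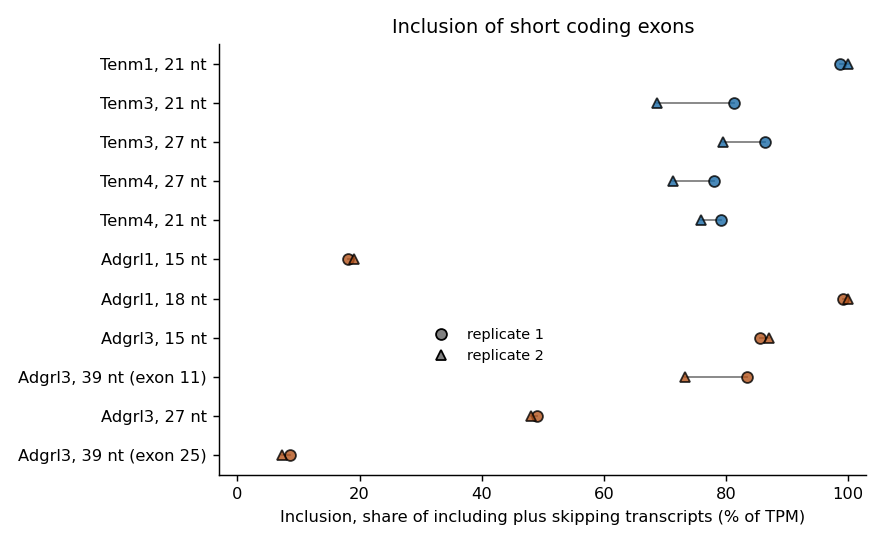
Inclusion of each short coding exon with an annotated skip, in percent of TPM, for replicate 1 (circles) and replicate 2 (triangles), with teneurins in blue and latrophilins in orange. The 15-nt exon stands at 18.6% in Adgrl1 and 86.3% in Adgrl3.

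The plot of exon inclusion leaves out an 11-nt exon of Adgrl3, the only one whose length is no multiple of 3, included at 1.15 ± 1.63% (SD, n = 2).

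On TMM-scaled counts, 0 of 10 differed by 2-fold or more between replicate 1 and replicate 2, against 11.0% of the 17536 genes that averaged at least 10 counts and 7.58% of the 15186 protein-coding ones. At 1.5-fold the members again gave 0 of 10, against 22.4% of all genes and 17.7% of protein-coding genes. With 10 members, 0 at 2-fold is near these shares. All 10 passed the count filter. With 1 library on each side, these ratios have no replicate check and no test. The lowest was Tenm4, with 7945 expected counts in replicate 1 and 12185 in replicate 2 and a log2 ratio of -0.34 (SE 0.021, counting error). The highest was Tenm3, with 13511 counts in replicate 1 and 14854 in replicate 2 and a log2 ratio of 0.14 (SE 0.017). The log2 ratio was -0.24 for Tenm2 and Flrt2, -0.21 for Adgrl1, -0.18 for Adgrl3 and -0.17 for Tenm1. It was 0.05 for Flrt1, 0.04 for Adgrl2 and 0.01 for Flrt3.

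The sign of the ratio depended on the scaling for 4 genes. Tenm3, Adgrl2, Flrt1 and Flrt3 were above 0 with TMM or DESeq2 size factors, whereas all 10 were below 0 with library totals, which move the median of all genes to -0.19, and with coding TPM. The median log2 ratio of the 10 was -0.18, against 0.0027 over all genes tested. The ratio also varied with transcript length over all genes, with a median of -0.15 in the longest of 10 equal bins of protein-coding genes by effective length and 0.37 in the shortest. Of the members, 7 fall in the longest bin, and after subtracting the median of genes of similar length the median of all 10 was -0.042.

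Markers of the diencephalon, which is itself part of the forebrain, and of the meninges differed more between the libraries than the members did. All 10 diencephalic factors were lower in replicate 1, with a median log2 ratio of -1.21 and a summed level of 47.2 coding TPM in replicate 1 against 87.4 in replicate 2, and none was at 0. The lowest of them was Hmx3 at 0.98 ± 0.86 and the highest Lhx9 at 24.2 ± 8.07 coding TPM (SD, n = 2), and 7 of 10 reached 1 coding TPM in both libraries. All 8 meningeal fibroblast markers were lower in replicate 1 as well, with a median of -0.81 and sums of 397.5 coding TPM in replicate 1 and 969.8 in replicate 2. They ran from Lum at 9.47 ± 5.87 to Igf2 at 211.9 ± 91.4 coding TPM (SD, n = 2). The part of both lists in the members' ratios was not tested. Telencephalic factors had a median log2 ratio of -0.13. It was 0.20 for neuron markers, 0.28 for astrocyte and radial glia markers, 0.39 for oligodendrocyte precursor markers, 0.11 for microglial markers and -0.27 for endothelial markers. All genes of these 5 cell type lists had at least 1 coding TPM in both libraries. Neuron markers ran from Rbfox3 at 39.1 ± 4.61 to Tubb3 at 3734 ± 104.2 coding TPM, and astrocyte and radial glia markers from Aqp4 at 27.7 ± 0.72 to Apoe at 1220 ± 225.9 (SD, n = 2). Precursor markers ran from Sox10 at 7.45 ± 0.84 to Olig1 at 112.6 ± 18.6, microglial markers from Aif1 at 2.66 ± 1.25 to C1qc at 61.0 ± 1.52, and endothelial markers from Tek at 8.43 ± 2.21 to Cldn5 at 161.2 ± 19.0 coding TPM.

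**Figure D5:**
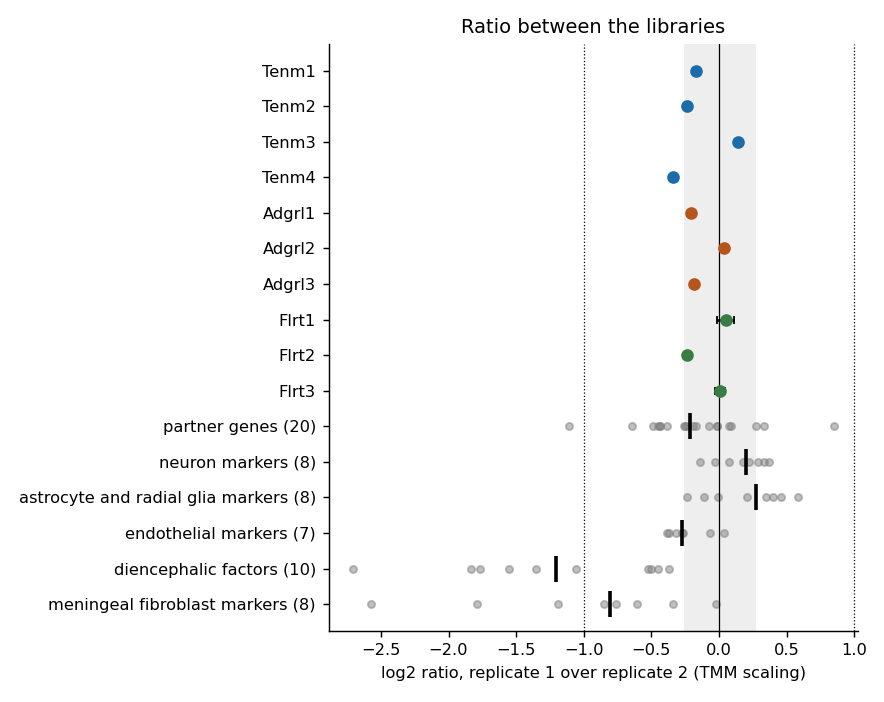
Log2 ratio of replicate 1 over replicate 2 after TMM scaling for each gene, with SE, and for listed genes (grey points; black ticks are list medians). The band spans the middle 50% of all genes tested and dotted lines mark 2-fold; the members lie between -0.34 and 0.14, and the diencephalic median is -1.21.

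The plot of ratios between the libraries sets the members beside these lists and beside genes of their known partners. No partner gene of the 20 listed fell short of 1 coding TPM in either library, and their median level was 31.5 ± 3.29 coding TPM (SD, n = 2). Of the latrophilin ligands, the presynaptic neurexin genes Nrxn2 and Nrxn3 averaged 222.5 ± 28.7 coding TPM for Nrxn2 and 74.7 ± 23.2 for Nrxn3, and the contactin gene Cntn6 averaged 30.0 ± 2.10 (SD, n = 2). The Shank scaffolds, which bind the latrophilin tail at synapses, stood at 34.2 ± 0.87 for Shank1, 27.8 ± 1.43 for Shank2 and 39.2 ± 2.17 coding TPM for Shank3. Adgrl4, a relative of the latrophilins known from endothelium, averaged 16.7 ± 6.21 coding TPM.

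Of the FLRT receptors, Unc5a averaged 35.4 ± 12.5, Unc5d 28.9 ± 8.45, Unc5c 21.9 ± 0.53 and Unc5b 10.3 ± 3.95 coding TPM (SD, n = 2). Unc5b was the lowest of the 20 partners. Robo1, a Slit receptor that binds FLRT3, averaged 78.2 ± 20.3 coding TPM, and the FGF receptor Fgfr1 51.2 ± 8.73. Rnd1, a small GTPase that acts with FLRT3 and Unc5b in Xenopus, averaged 43.8 ± 15.6 coding TPM, and Gpc3, a glypican that binds Unc5 receptors, 20.3 ± 12.4. Of genes whose products act on teneurins, the dystroglycan gene Dag1 averaged 97.1 ± 18.3 and the protease gene Furin 18.7 ± 3.21 coding TPM. Mbd1, whose product binds the intracellular part of TENM1, averaged 28.6 ± 5.51 coding TPM (SD, n = 2).

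Of the 20 partners, 1 differed by 2-fold or more between the libraries, against 11.0% of all genes tested. This was Gpc3, with 11.5 coding TPM in replicate 1 and 29.1 in replicate 2, and a log2 ratio of -1.11 (SE 0.077). At 1.5-fold there were 3, against 22.4% of all genes, namely Gpc3, Rnd1 with a log2 ratio of 0.85 and Unc5b with -0.64. The median log2 ratio of the partners was -0.22.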

How the data were processed

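Total RNA over 200 nt, depleted of ribosomal RNA, was sequenced as stranded paired ends in 2 libraries, per the labels. The authors deposited expected counts, posterior mean counts, TPM, FPKM and isoform percentages for genes and transcripts on mm10 with GENCODE M4, per the text supplied with each sample. The SE of a ratio combined Poisson counting error with the deposited posterior SD of each count, a score that was 0 for all 10 members at the gene level, so their SEs are counting error alone. No source used here names the aligner or the quantifier. TPM was scaled by the authors over all features, spike-ins included.

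Members and lists were chosen with earlier results of these data known. Symbols, biotypes, coordinates and exons came from GENCODE M21, which matched 42462 of 43346 genes. Coding TPM multiplied TPM by 7.38 in replicate 1 and 4.54 in replicate 2. Expected counts were rounded, TMM-scaled with edgeR 4.0.16, and 0.5 was added before the log2 ratio of replicate 1 over replicate 2. No test was run, since 1 group holds 2 libraries. Every member, partner and transcript of at least 10% of its gene's TPM in either library was to be named, but some partners are not reported here. DESeq2 1.42.0 gave other size factors, in R 4.3.3. Python 3.11.15, numpy 2.4.6, pandas 2.3.3 and matplotlib 3.10.9 did the rest. The steps were tested on simulated data. Microexon inclusion was added after seeing the data.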

Additional observations from a re-analysis of the deposited data

How the results depend on the processing

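No paired analysis was possible because both libraries belong to 1 group. With TPM as deposited, the sums of the teneurins, latrophilins and FLRT genes averaged 57.6 ± 28.8, 82.2 ± 35.03 and 19.0 ± 8.99 TPM (SD, n = 2), the factor to coding TPM being 7.38 in replicate 1 and 4.54 in replicate 2. Tenm1 then had 7.94 TPM in replicate 1 and 15.9 in replicate 2. With transcripts of at least 2000 nt, the teneurin and latrophilin sums were 224.5 and 400.2 coding TPM, and 4 of 10 genes kept their rank. The median percentile was 79.1 among protein-coding genes that averaged at least 10 counts. The median log2 ratio of the members was -0.37 with library totals, -0.27 with coding TPM and -0.042 after centring on length; that of the partners was -0.41, -0.35 and -0.14, and 3 partners passed 1.5-fold. The causes were not tested. Leaving out each replicate in turn gave teneurin sums of 274.7 to 353.9, latrophilin sums of 424.0 to 485.6 and FLRT sums of 93.6 to 115.3 coding TPM, a median percentile of 84.2 to 86.2, 8 to 10 genes in place in the order and 9 to 10 unchanged leading transcripts. Of single values, 15 of 70 member levels, 30 of 80 ratios, 8 of 49 transcript shares and 1 of 36 inclusion values moved. For levels, shares and inclusion, this means beyond the spread between libraries. Ratios have no such spread, and library totals shift all 10 by the same amount. Leaving out 1 of 2 libraries shifts a mean by less than its SD, so it could not count as moved. Another fold threshold leaves each ratio unchanged. TPM as deposited, a change of unit, moved all 10 member levels. The length-based alternatives were chosen after seeing the data. With 2 libraries, the spread itself is poorly known.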
